A study of Homo sapiens with 10 samples.

Results

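The early treated groups, 2 h and 4 h after a degrader was added to Rh30 cells, were set against both ends of the same series, the solvent control and 24 h of treatment. The question was what sets the early hours apart from where the cells began and from where they arrived. The early side had 4 libraries and the end side 4, which are 8 of the 10 samples of the series. The other 2 are input libraries of DMSO-treated cells and were not analysed here. The sides were fixed by the column names of the deposited count table, and all 42067 peak rows entered, of which 41791 passed the filter on low counts and were tested.

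The cells were Rh30, an established line from a human alveolar rhabdomyosarcoma, with the fusion transcription factor PAX3-FOXO1 carrying an FKBP degron tag. The control group received DMSO, with no time given in the labels. The treated groups received 500 nM dTAG47 for 2 h, 4 h or 24 h. Each group had 2 libraries of chromatin precipitated with an antibody to histone H3 acetylated at lysine 27 (H3K27ac). Clonality of the line and whether libraries of a group came from separate cultures were not given in the sources used here, so p-values measure a spread that may be technical. Since DMSO has no time label, time in culture and time of treatment cannot be told apart.

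PAX3-FOXO1 joins the DNA-binding part of PAX3, a regulator of muscle precursors, to the activating part of FOXO1, and drives this tumour by holding enhancers of a muscle-lineage programme active. H3K27ac is placed by the acetyltransferases p300 and CBP at active promoters and enhancers, and is removed by histone deacetylases. dTAG47 binds the FKBP tag and brings the fusion to a ubiquitin ligase, which sends it for degradation. A site that loses the mark early and stays low, a site that changes late, and a site that changes early and returns are 3 separate time courses. The comparison of the early groups with both ends responds most to the last of them, but a large difference from 1 end is enough to pass it.

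Total counts in peaks ranged from 3540104 to 5001652 per library, and the median peak held 48 to 69 counts. Total counts did not separate the sides, with 4011586 ± 526499 (SD, n = 4) on the early side and 4114312 ± 708319 (SD, n = 4) on the end side (exact permutation test, two-sided, p = 0.829). The 2 h library B and the 4 h library B stood apart in weak peaks. In the lowest decile of tested peaks by level, their summed signal was 91.6% and 89% of the mean of the 8 libraries. The other early libraries were at 99.8% and 102%, DMSO at 100.01% and 101%, and 24 h at 111% and 106%. The calls and the results on weak peaks are given below with and without these B libraries.

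Few peaks differed between the early groups and the mean of the ends. With 1 mean for each of the 4 groups, 122 peaks (0.292% of those tested) were higher at 2 h and 4 h than at the mean of DMSO and 24 h, and 148 (0.354%) were lower (edgeR quasi-likelihood test, Benjamini-Hochberg adjusted p under 0.05), 270 and 0.646% in all. The median log2 difference was 0.46 among the higher peaks and -0.57 among the lower, against 0.00 over all tested peaks. At an unadjusted p under 0.05 the counts were 2587 higher and 2558 lower, 6.19% and 6.12% of those tested. The higher peaks lay on 20 chromosomes and the lower on 23. Called peaks covered levels from 4.10 to 182 CPM (read counts scaled to library size) for the higher and from 1.94 to 210.4 CPM for the lower. Below a mean of 10 CPM lay 17 of the higher and 43 of the lower peaks, 13.9% and 29.1% of the lists, where 37.3% of all tested peaks lay.

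These counts moved with the test, the early group and the libraries used. The DESeq2 Wald test called 0 higher peaks and 1 lower. Against a 1.2-fold change (edgeR glmTreat), 0 were called in either direction. When the 4 libraries of a side were fitted with 1 mean, so that differences between groups of a side entered the spread, 1 higher and 6 lower peaks were called. The limma-voom test called 121 and 139. With 2 h as the only early group 80 (0.191%) and 42 (0.101%) were called, and with 4 h as the only one 20 (0.0479%) and 31 (0.0742%). The median log2 difference of the 270 peaks was much the same at either time, 0.48 and 0.43 for the higher and -0.54 and -0.56 for the lower. The peaks were chosen by the mean of these differences, so the medians only describe them. Compared directly, 4 h and 2 h differed in 0 of 41791 tested peaks (edgeR adjusted p under 0.05). Leaving out DMSO library A gave 38 higher and 53 lower peaks, and leaving out DMSO library B gave 32 and 40. The counts were 31 and 25 with 2 h library B left out, 40 and 48 with 4 h library B left out, 45 and 45 with 24 h library A left out, and 64 and 88 with 24 h library B left out. Without both early B libraries 16 and 22 were called, and without both early A libraries 95 and 192.

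**Figure D1:**
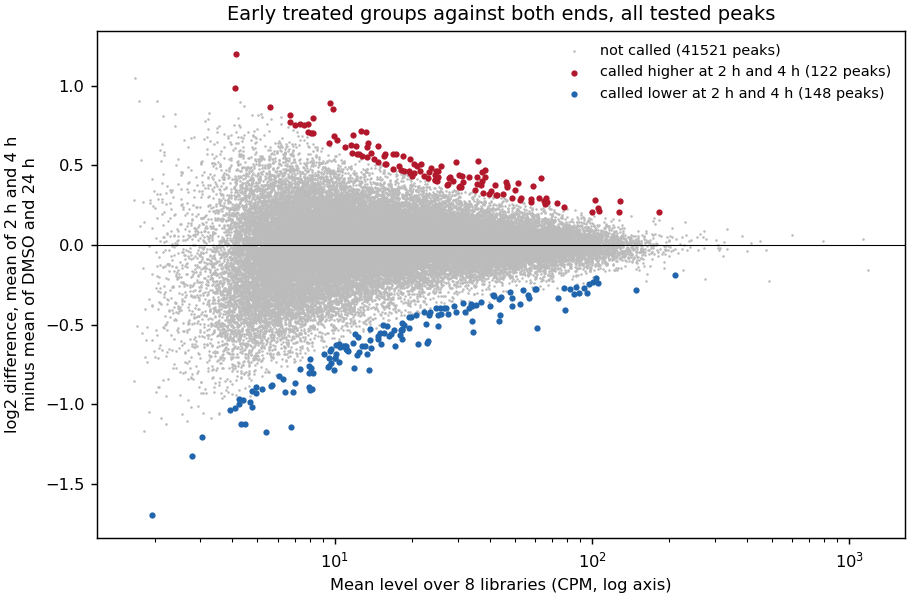
Each point is 1 tested peak, with its mean level over the 8 libraries (CPM, log axis) against the log2 difference between the mean of 2 h and 4 h and the mean of DMSO and 24 h. Red marks the 122 peaks called higher and blue the 148 called lower, and the size of the difference needed for a call shrinks as the level grows.

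Among the 122 higher peaks, the early mean lay above the means of both DMSO and 24 h in 115, and between them in 7. Among the 148 lower peaks it lay below both end means in 137 and between them in 11. Of all 41791 tested peaks it lay above both in 11799 and below both in 11188. Individual libraries separated less often. All 4 early libraries were above all 4 end libraries in 67 of the 122, while 2.19% of all tested peaks had that order. All 4 were below in 84 of the 148, against 2.13% of all tested peaks. The test itself chose these peaks, so these counts describe them and support nothing further.

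The higher peaks passed more often against 24 h than against DMSO, and so did all tested peaks in that direction. The lower peaks passed more often against DMSO, where all tested peaks passed about equally often against either end. Each end was compared with the early groups in the same fit, and these comparisons share the early libraries. In either direction 2.55% of all tested peaks passed against DMSO alone and 4.66% against 24 h alone. Of the higher peaks, 105 also passed against 24 h alone, where 2.61% of all tested peaks passed in that direction, and 25 passed against DMSO alone, where 0.536% did. Their median log2 difference was 0.63 from 24 h and 0.28 from DMSO. Of the lower peaks, 109 also passed against DMSO alone (2.02% of all tested) and 71 against 24 h alone (2.05%), with median log2 differences of -0.69 and -0.47. Both ends passed in the same direction for 12 of the higher and 34 of the lower peaks, and for 46 of all 41791 tested peaks. The main difference is the mean of these 2 differences, so these counts describe the lists and support nothing further. The ends themselves differed in part of the list. The 24 h level was lower than DMSO in 38 and higher in 5 of the higher peaks, and lower in 38 and higher in 4 of the lower peaks. Over all tested peaks 8.35% differed between 24 h and DMSO, 4.89% lower and 3.46% higher at 24 h.

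**Figure D2:**
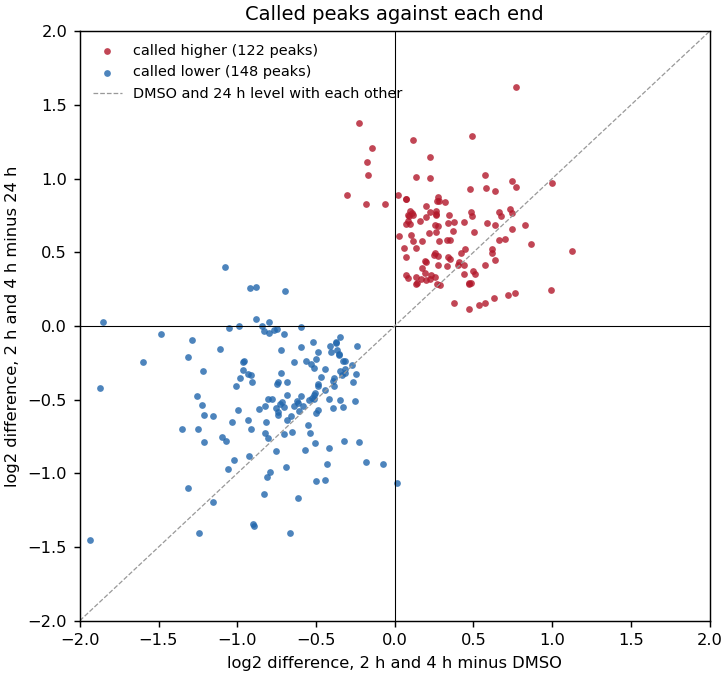
Each point is 1 of the 270 called peaks, with its log2 difference from DMSO on the x axis and from 24 h on the y axis (both from the mean of 2 h and 4 h, which they share). Red points lie mostly above the dashed line, farther from 24 h than from DMSO (medians 0.63 and 0.28), and blue points lie more to the left, farther from DMSO (medians -0.69 and -0.47).

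A pair of peaks shows how a difference from 1 end passes the comparison. On chromosome 10 at 115426225 to 115426625, the level was 46.1 and 43.7 CPM with DMSO, 46.2 and 43.9 after 2 h, 38.4 and 34.9 after 4 h, and 16.0 and 19.3 after 24 h. The early libraries were close to or below DMSO and far above 24 h, and this peak was called higher (log2 difference 0.53, SE 0.09, edgeR adjusted p = 0.000328) with no excess over DMSO (-0.15, adjusted p = 0.595). On the same chromosome at 103529989 to 103530389, levels went from 147 and 147 CPM in DMSO to 85.01 and 105 after 2 h, 87.5 and 84.2 after 4 h, and 79.8 and 74.1 after 24 h. It was called lower (log2 difference -0.23, SE 0.06, edgeR adjusted p = 0.0313), although the early level lay between the ends and above 24 h (0.23, adjusted p = 0.0414).

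A stricter test asked that a peak differ from DMSO and from 24 h in the same direction, using the larger of the 2 p-values. It called 1 lower peak (0.00239% of those tested) and 0 higher ones. At an unadjusted p under 0.05 it gave 379 lower and 301 higher peaks, 0.907% and 0.72% of those tested. The same test gave 0 higher and 1 lower peak with limma-voom and 0 in either direction with DESeq2. The count of lower peaks was 0 where DMSO library A, DMSO library B or 24 h library A was left out, 2 with 2 h library B left out, 6 with 4 h library A left out and 17 with both early A libraries left out. A higher peak was called, 1 in each case, with 2 h library A or both early A libraries left out.

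The peak that passed lies on chromosome 20 at 47117498 to 47117898. It had 72.9 and 73.6 CPM with DMSO, 46.5 and 55.5 after 2 h, 50.4 and 47.3 after 4 h, and 72.5 and 69.1 after 24 h. All 4 early libraries were below all 4 end libraries, and the ends were close to each other (log2 difference 24 h minus DMSO -0.05, SE 0.09). The early groups were lower than DMSO by a log2 difference of -0.55 (SE 0.09) and than 24 h by -0.50 (SE 0.08), with an edgeR adjusted p = 0.000363 for both ends together. That call was lost with 2 h as the only early group (0.138), without DMSO library A (0.219), DMSO library B (0.331) or 24 h library A (0.648), and in DESeq2 and against a 1.2-fold change (1 in each). A second peak of the same region at 47118619 to 47119019 was also called lower than the ends (log2 difference -0.59, SE 0.14, edgeR adjusted p = 0.0156), while the third, at 47114058 to 47114458, was not (-0.14, adjusted p = 0.72).

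Peaks close together were stitched into regions at the distance customary for super-enhancers, and their counts summed. Apart from both ends were 1 higher region (0.00382% of those tested) and 2 lower ones (0.00765%), where an unadjusted p under 0.05 was reached by 253 (0.968%) and 261 (0.998%). The 3 chromosome 20 peaks together, at 47114058 to 47119019, had 103 and 108 CPM with DMSO, 78.1 and 82.6 after 2 h, 74.4 and 73.5 after 4 h, and 108 and 107 after 24 h (edgeR adjusted p for both ends = 3.39e-05). Early libraries were below the ends without overlap. This call was lost without DMSO library B (0.0848), with 2 h alone (0.075) and in DESeq2 (0.349) and glmTreat (1). The other lower one is a lone peak on chromosome 1, from 95583034 to 95583434, which had 95.1 and 92.0 CPM with DMSO, 66.2 and 74.5 after 2 h, 68.7 and 61.8 after 4 h, and 84.6 and 87.8 after 24 h (edgeR adjusted p for both ends = 0.0308 among regions and 0.112 among peaks). Here 24 h sat a little below DMSO, and the early libraries lay below both.

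The region that passed in the other direction holds 10 peaks on chromosome 22 at 23226716 to 23257263. Its level was 180.2 and 173 CPM with DMSO, 204 and 209 after 2 h, 219.8 and 215 after 4 h, and 178 and 179 after 24 h (log2 difference from the ends 0.26, SE 0.04, edgeR adjusted p for both ends = 0.0093). Every early library exceeded every end library. All 10 peaks had a positive difference, from 0.10 to 0.43, but only the first, at 23226716 to 23227116, was called alone (0.43, adjusted p = 0.00801). The chromosome 22 call was lost in 7 of the 8 fits that left out a library, all but that without 2 h library A, with adjusted p from 0.054 to 1. The chromosome 1 call was lost without DMSO library A, 2 h library A, 4 h library B, 24 h library A or 24 h library B (0.198 to 0.889). With 2 h as the only early group both were lost (0.692 on chromosome 1 and 0.399 on chromosome 22), with 4 h alone both held (0.0456 and 0.01), and in DESeq2 and glmTreat both were lost (1 in each). Without both early B libraries both were lost too (0.527 and 0.439), and without both early A libraries the chromosome 1 call was lost (0.122) and that on chromosome 22 held (0.0449).

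**Figure D3:**
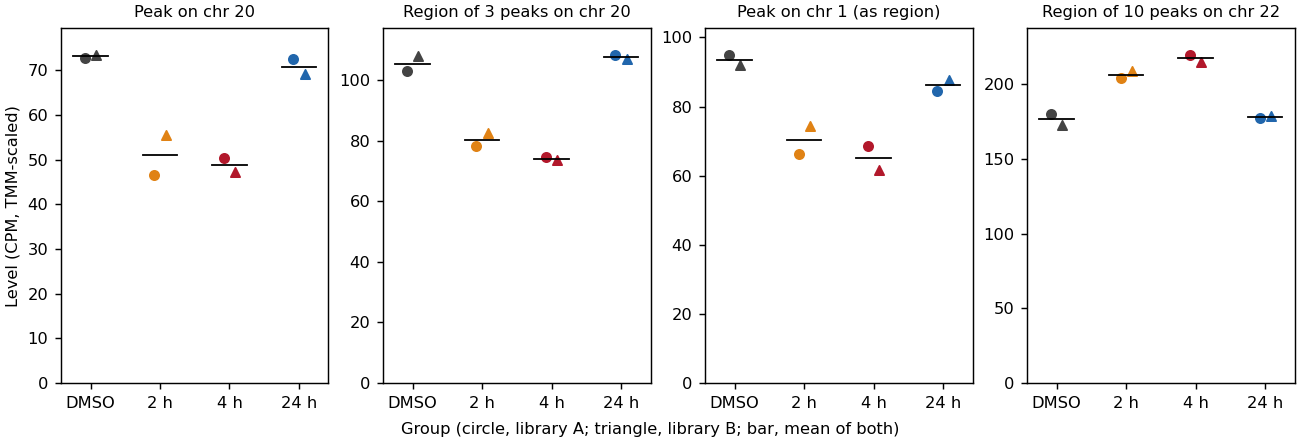
Levels (CPM, linear axis from 0) of the peak and the 3 regions that passed against both ends, by group, with a circle for library A, a triangle for library B and a bar at the mean of both. The 3 left panels dip at 2 h and 4 h and are back at or near the DMSO level at 24 h, and the chromosome 22 region does the opposite, from 176 CPM in DMSO to 217 CPM at 4 h.

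The closest peak on the higher side of the test of both ends was on chromosome 9 at 136008707 to 136009107. DMSO libraries had 53.5 and 56.2 CPM, 2 h libraries 66.6 and 74.9, 4 h libraries 76.9 and 72.8, and 24 h libraries 51.1 and 57.1. Early libraries were above all end libraries and the peak was called in the main comparison (log2 difference 0.42, SE 0.07, edgeR adjusted p = 9.53e-05), but not against both ends (0.112). This peak and the chromosome 22 region were chosen for the text by their p, after values were seen.

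The long regions given next were picked from those with the lowest p for both ends, after values were seen, and neither passed. On chromosome 9 from 135989511 to 136024584, around the peak just given, 6 peaks summed to 233 and 229 CPM with DMSO, 268 and 273 after 2 h, 264 and 274 after 4 h, and 239 and 239 after 24 h (log2 difference from the ends 0.20, SE 0.04, edgeR adjusted p = 0.000125, and 0.38 for both ends). On chromosome 2 from 1689815 to 1748279, 10 peaks summed to 366 and 372, 302 and 329, 342 and 333, and 370.5 and 359 CPM (log2 difference from the ends -0.17, SE 0.03, edgeR adjusted p = 0.000481, and 0.38 for both ends). In both regions the 4 early libraries lay on one side of all end libraries, at differences well below those of the single peaks. Of all tested regions 2.42% had all early libraries above all end libraries and 2.22% all below.

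Named peaks were the 12 higher and 12 lower with the largest difference among called peaks at or above the median level of 13.7 CPM whose early libraries lay all on one side of the end libraries. The 12 higher ones had 38.8% to 53.9% more signal in the early groups than at the ends (log2 differences from 0.47 to 0.62, SE 0.09 to 0.14). Against 24 h alone 10 of the 12 passed and against DMSO alone 3 did, where 2.61% and 0.536% of all tested peaks passed higher. The naming rule favours such peaks, so the counts only describe them. The highest ranked was on chromosome 10 at 100103808 to 100104208, with 12.52 and 9.94 CPM with DMSO, 16.0 and 16.6 after 2 h, 20.4 and 18.3 after 4 h, and 11.7 and 12.1 after 24 h. It was the 1 peak of the 12 that passed against both DMSO (edgeR adjusted p = 0.021) and 24 h (0.0182) when these were tested one at a time.

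The largest excess over DMSO after it was on chromosome 9 at 95825672 to 95826072, at 8.82 and 12.8 CPM with DMSO, 17.6 and 14.1 after 2 h, 16.6 and 19.3 after 4 h, and 12.3 and 12.3 after 24 h. Its 24 h libraries lay within the range of the DMSO libraries. A peak on chromosome 5 at 149535024 to 149535424 had the same order, at 15.9 and 11.9 CPM with DMSO, 17.6 and 20.3 after 2 h, 24.3 and 21.1 after 4 h, and 15.6 and 15.5 after 24 h. Both differed from DMSO (edgeR adjusted p = 0.0386 and 0.0322) and not from 24 h alone at the threshold (0.0946 and 0.0812).

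In most other named higher peaks 24 h was the lower end. On chromosome 4 at 7136782 to 7137182, levels were 32.2 and 25.6 CPM with DMSO, 33.8 and 35.6 after 2 h, 35.7 and 33.4 after 4 h, and 19.2 and 21.4 after 24 h (edgeR adjusted p = 0.00104 for the early groups against the ends). On chromosome 9 at 137908669 to 137909069 they were 41.0 and 33.0, 44.3 and 42.4, 46.3 and 44.1, and 26.5 and 28.4 CPM in the same order of groups. In both, DMSO reached nearly to the early levels in 1 library, and 24 h was lower than DMSO (log2 difference -0.51 and -0.43, edgeR adjusted p = 0.0164 and 0.0233). They are also the 2 of the 12 that kept their call in each fit that left out 1 library. The peak on chromosome 19 at 16999766 to 17000166 lost it in all 8 such fits, and those on chromosome 1 at 45110033, chromosome 9 at 95825672, chromosome 11 at 61551615 and chromosome 5 at 149535024 in 6 each.

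The 12 named lower peaks had 30.9% to 36.3% less signal in the early groups than at the ends (log2 differences from -0.65 to -0.53). Against DMSO alone 10 passed, against 24 h alone 10 passed, and 8 passed both. Of all tested peaks 2.02% and 2.05% passed lower against these ends. The naming rule favours such peaks, so the counts only describe them. A pair of peaks lay close together on chromosome 4. The one at 7511937 to 7512337 had 25.3 and 27.6 CPM with DMSO, 17.6 and 20.1 after 2 h, 17.2 and 17.1 after 4 h, and 29.5 and 28.0 after 24 h. Its neighbour at 7511189 to 7511589 had 14.8 and 16.5, 11.8 and 14.1, 11.2 and 12.6, and 21.2 and 21.8 CPM. Early libraries were the lowest in both, and 24 h was the highest group in both (24 h minus DMSO log2 difference 0.12 and 0.46, edgeR adjusted p = 0.692 and 0.0896). The first kept its call in each fit that left out 1 library and the second lost it in all 8.

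Another group of named lower peaks stayed lower at 24 h than in DMSO. On chromosome 11 at 61263948 to 61264348, DMSO had 35.0 and 35.2 CPM, 2 h 16.5 and 19.2, 4 h 18.3 and 17.8, and 24 h 20.003 and 23.0 (early groups minus DMSO log2 difference -0.96, edgeR adjusted p for 24 h minus DMSO = 9.7e-05). On chromosome 10 at 134555705 to 134556105, the values were 24.5 and 26.1, 13.8 and 14.3, 12.54 and 12.4, and 15.2 and 18.2 CPM. The 24 h libraries lay above the early ones in both peaks, but the difference between 24 h and the early groups did not pass (edgeR adjusted p = 0.336 and 0.243), so a return at 24 h was not detectable there.

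Full separation with level ends was seen on chromosome 1 at 144999985 to 145000385, with 43.0 and 36.1 CPM with DMSO, 24.2 and 26.5 after 2 h, 29.7 and 31.7 after 4 h, and 40.8 and 43.7 after 24 h (log2 difference from the ends -0.54, SE 0.09, edgeR adjusted p = 0.000175). On chromosome 14 at 77772196 to 77772596 the levels were 20.5 and 19.3, 16.2 and 12.6, 12.3 and 12.6, and 19.4 and 19.3 CPM. Its ends were level, and each early library lay below them. Those on chromosome 10 at 23439504, chromosome 20 at 47118619, chromosome 1 at 119029532, chromosome 16 at 33963024, chromosome Y at 13460843 and chromosome 11 at 19886122 completed the list, with early levels from 8.99 to 19.1 CPM.

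**Figure D4:**
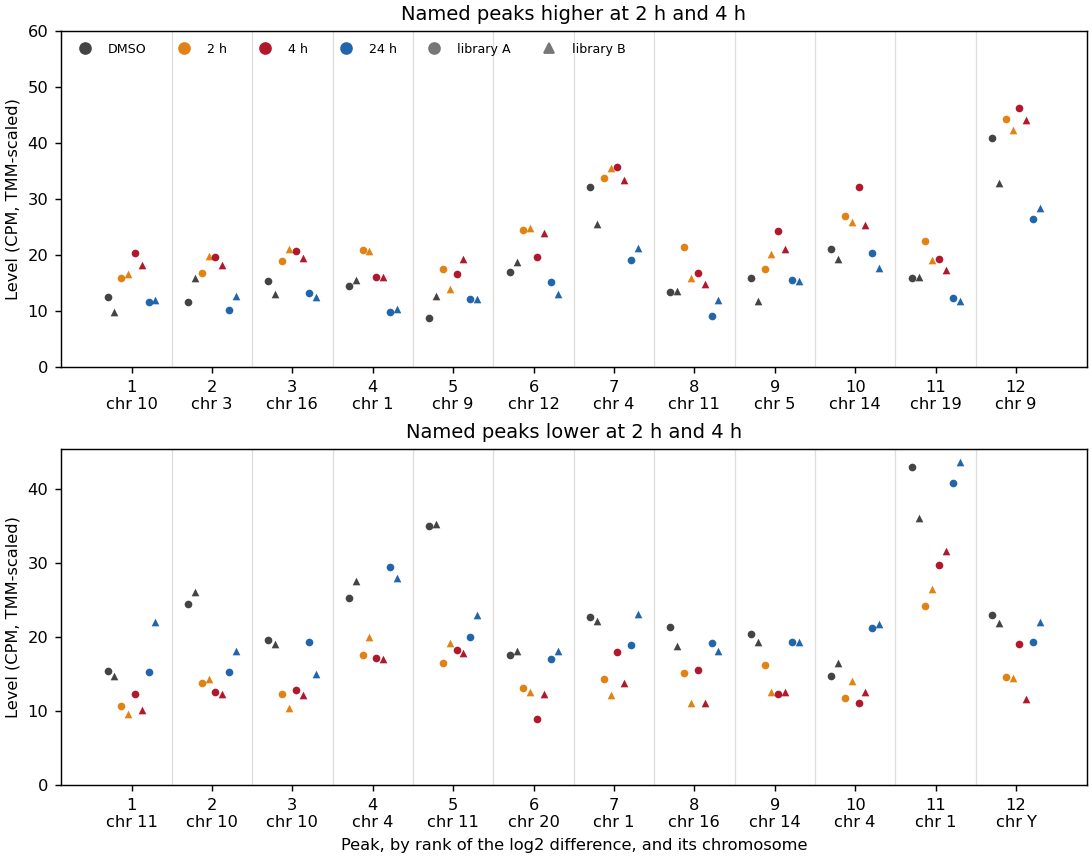
Levels (CPM, linear axis from 0) of the 12 named higher and 12 named lower peaks in each library, ordered by the size of their log2 difference and labelled by chromosome, with circles for library A and triangles for library B. Orange and red points (2 h and 4 h) lie above all grey and blue ones (DMSO and 24 h) in the upper panel and below them in the lower panel, as the naming rule requires, and the ends are not always level with each other.

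DESeq2 called 0 of the 24 named peaks (adjusted p from 0.475 to 1), and 0 passed against a 1.2-fold change by glmTreat (adjusted p from 0.52 to 1). With 1 mean per side, 0 of the 12 higher and 2 of the 12 lower passed. Without both early B libraries 3 of the 12 higher and 3 of the 12 lower passed, and without both early A libraries 6 and 10.

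Among strong peaks, those with a mean above 100 CPM, 6 were called higher and 5 lower of 886 tested, 0.677% and 0.564%, where 0.292% and 0.354% of all tested peaks were called. Differences were small in all of them, from 0.21 to 0.28 on the log2 scale in the higher and from -0.28 to -0.19 in the lower. On chromosome 1 at 1240622 to 1241022, levels were 124 and 122 CPM with DMSO, 135 and 144 after 2 h, 141 and 142 after 4 h, and 105 and 114 after 24 h (log2 difference 0.28, SE 0.05, edgeR adjusted p = 0.00104). On chromosome 20 at 61086901 to 61087301, they were 154 and 163, 136 and 124, 137 and 139, and 166 and 170.1 CPM (log2 difference -0.28, SE 0.05, edgeR adjusted p = 0.000372). In both, the early libraries did not overlap the end libraries. Differences over 1 on the log2 scale were found in 1 higher and 11 lower called peaks, and these 12 were weak, with means from 1.94 to 6.78 CPM.

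Stitching gave 26314 regions, of which 26144 were tested. The early groups were higher in 215 (0.822%) and lower in 176 (0.673%), 1.5% in all (edgeR adjusted p under 0.05). Regions of 2 or more peaks made up 167 and 122 of these, although most tested regions held 1 peak (17891 tested peaks stood alone). Regions of more peaks also hold more counts, so number of peaks and depth cannot be told apart in these counts. The early libraries were all above the ends in 123 of the 215 higher regions or all below them in 93 of the 176 lower ones, where 2.42% and 2.22% of all tested regions had these orders. DESeq2 called 4 higher and 4 lower, glmTreat 0 and 0, and the fit with 1 mean per side 0 and 2. Leaving out 1 library gave 114 and 105 (DMSO library A), 105 and 86 (DMSO library B), 88 and 63 (2 h library B), 135 and 151 (4 h library A), 76 and 74 (4 h library B), 107 and 83 (24 h library A) or 120 and 130 (24 h library B). Without both early B libraries 15 and 22 were called, and without both early A libraries 98 and 131.

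The 6 named regions in each direction had 2 or more peaks and met the rule for named peaks. The median level of regions used for it was 19.1 CPM, and the rule fixes that early and end libraries do not overlap. Their log2 differences were 0.39 to 0.55 and -0.56 to -0.48. Against a 1.2-fold change (glmTreat) 0 of the 6 higher and 0 of the 6 lower kept their call. The counts were also 0 and 0 with 1 mean per side. DESeq2 gave an adjusted p for 2 in each direction and called 0 of them. Over all 215 higher regions the largest log2 difference was 0.90. Among the 6 named higher regions the largest was on chromosome 11 at 71199351 to 71200926, with 2 peaks. It had 22.1 and 20.9 CPM with DMSO, 31.7 and 25.6 after 2 h, 35.3 and 29.8 after 4 h, and 17.6 and 22.5 after 24 h (edgeR adjusted p = 0.00033). The 2-peak region on chromosome 1 from 33239733 to 33241810 had level ends, with 31.2 and 29.7 CPM in DMSO and 30.9 and 32.3 after 24 h, against 39.2 and 43.0 after 2 h and 38.3 and 41.7 after 4 h. Neither of its peaks was called alone (adjusted p = 0.123 and 0.13).

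On the lower side, 5 peaks on chromosome 2 at 87623659 to 87655997 summed to 38.6 and 33.4 CPM with DMSO, 24.5 and 22.4 after 2 h, 30.9 and 24.6 after 4 h, and 36.5 and 37.7 after 24 h (log2 difference -0.52, SE 0.10, edgeR adjusted p = 0.000117). All 5 peaks had a negative difference, from -0.93 to -0.20, and 0 were called alone. The 2-peak region on chromosome 10 from 79190630 to 79191937 had 28.1 and 31.7 CPM with DMSO, 24.0 and 19.0 after 2 h, 18.9 and 21.8 after 4 h, and 29.1 and 27.7 after 24 h. On chromosome 17 at 28850356 to 28862663, the levels were 18.4 and 22.4 CPM with DMSO, 17.7 and 18.1 after 2 h, 15.9 and 18.4 after 4 h, and 27.1 and 31.8 after 24 h. There 24 h was the high end, and a difference of the early groups from DMSO was not called (edgeR adjusted p = 0.58).

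Weak peaks had lower values in the early B libraries than in the other libraries, while the early A libraries lay near DMSO. In the lowest decile by level, 65.1% had a negative difference between the early groups and the ends, and the median was -0.13 log2 units. Against DMSO alone the median was -0.07 and against 24 h alone -0.21. In the next decile the median was -0.05. In the other deciles medians lay between -0.01 and 0.03. The early side was not uniform in this. In the lowest decile the early A libraries were at 99.8% and 102% of the mean of the 8 libraries and the early B libraries at 91.6% and 89%, while the 24 h libraries were at 111% and 106%. Without the early B libraries the median of the lowest decile was -0.07, with 56.9% negative and 0 called lower, against 15 called lower with all libraries. Without the early A libraries it was -0.23, with 70.7% negative and 26 called lower. In the next decile the medians were -0.01 and -0.12. Offsets that follow abundance gave 117 higher and 164 lower peaks. Without chromosome Y and the lowest decile, an alternative chosen after these values were seen, 115 higher and 155 lower peaks were called.

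**Figure D5:**
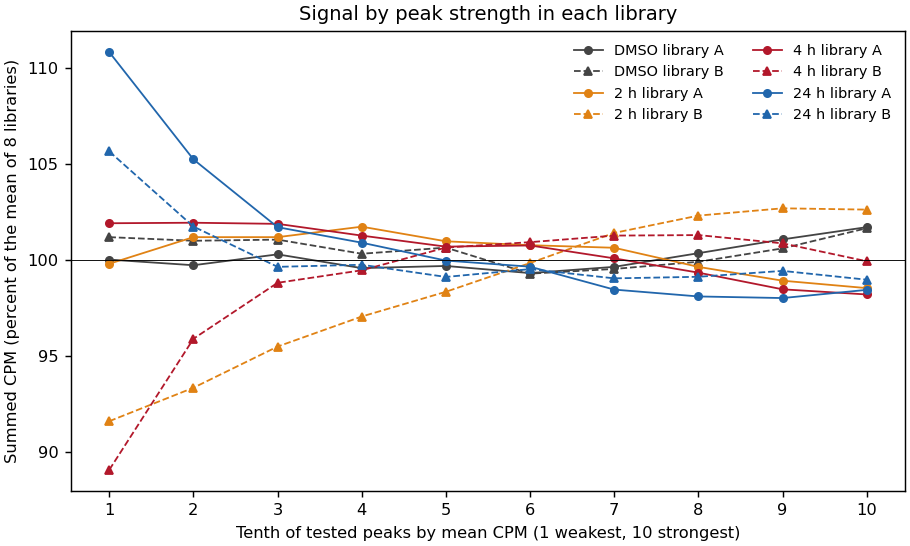
Summed signal in each decile of tested peaks, from weakest to strongest, as a percent of the mean of the 8 libraries, with 1 line per library (solid for library A, dashed for library B). In the lowest decile the B libraries of 2 h and 4 h are lowest, at 91.6% and 89%, and the 24 h libraries highest, at 111% and 106%, while the A libraries of 2 h and 4 h lie near DMSO.

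Chromosome Y and the flanks of some centromeres held the lowest differences. Over 33 tested peaks of chromosome Y the median difference was -0.32 log2 units, 28 were negative and 5 were called lower (15.2%, against 0.354% of all tested peaks). Summed signal there was 116% and 102% of the mean of the 8 libraries in DMSO, 93.5% and 83.1% after 2 h, 106% and 82.5% after 4 h, and 113% and 104% after 24 h. The 4 h library A was thus above 1 DMSO library and 1 24 h library, and the early B libraries were lowest. Medians of the other chromosomes ranged from -0.02 to 0.02. The 5 Mb windows with the lowest medians were on chromosome Y from 10 to 15 Mb (-0.37), chromosome 10 from 40 to 45 Mb (-0.23) and chromosome 2 from 90 to 95 Mb (-0.21), each beside a centromere, where repeats are dense. On chromosome 2 the early A libraries were at 104% and 110.0% of the mean of the 8 libraries, the early B libraries at 77.5% and 80.4%, DMSO at 106% and 108%, and 24 h at 122% and 92.4%. On chromosome 10 the early A libraries were at 100.04% and 104% and the early B libraries at 82.3% and 88.5%. The B libraries were the low ones in both windows. Without the early B libraries the medians were -0.03 on chromosome 2 and -0.05 on chromosome 10, with 0 peaks called in either window, and without the early A libraries they were -0.48 and -0.34, with 7 called lower in each. For all peaks of chromosome Y the median was -0.17 without the early B libraries, with 21 of 33 negative and 0 called, and -0.45 without the early A libraries, with 3 called lower. In its window from 10 to 15 Mb the median kept its size without the B libraries (-0.37), but 0 peaks were called there. The highest window medians, on chromosome X from 35 to 40 Mb, chromosome 3 from 35 to 40 Mb and chromosome 22 from 20 to 25 Mb, were 0.10, 0.08 and 0.08.

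Most called peaks were the only one of their direction called in their stitched region. The 122 higher peaks fell in 116 stitched regions and the 148 lower in 132, and 12 and 27 of them shared a region with another called peak of their direction. A share to compare with these counts was not computed, so whether called peaks lie together more than other peaks is not told. A called peak of the opposite direction was in the same region in 0 cases. Of the 214 windows of 1 Mb with a called peak, 8 held 3 or more of one direction. The densest was on chromosome 2 from 133 to 134 Mb, where 5 of 17 tested peaks were called lower and 16 were negative. The strongest of them, at 133034269 to 133034669, had 103 and 109.6 CPM with DMSO, 98.5 and 82.1 after 2 h, 94.3 and 69.8 after 4 h, and 103 and 106 after 24 h. The early B libraries were the lowest in each of the 5, and here the A libraries also lay below the ends.

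On chromosome 21 from 28 to 29 Mb 3 peaks were called lower. The strongest, at 28337967 to 28338367, had 112 and 119 CPM with DMSO, 88.9 and 87.9 after 2 h, 85.6 and 93.4 after 4 h, and 90.9 and 103 after 24 h. The early A and B libraries were alike there, and 24 h library A lay among them. Of the 27 tested peaks of that window 24 had a negative difference, with a median of -0.16. Chromosome 14 from 23 to 24 Mb, chromosome 15 from 74 to 75 Mb and chromosome 17 from 80 to 81 Mb held 3 higher peaks each, of 57, 53 and 95 tested. The window on chromosome 15 also held 1 lower peak, and in that on chromosome 17 51 of the 95 differences were negative, with a median of -0.01. These windows were chosen after the calls were seen.

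Peaks that stand alone held a smaller share of the counts in the early libraries. Single-peak regions held 41.2%, 41.4%, 41.1% and 41.3% of counts in the early libraries (2 h before 4 h, A before B) and 41.6%, 41.6%, 41.5% and 41.6% in the end libraries (DMSO before 24 h). The sides did not overlap, and the mean difference was -0.33 percentage points. The exact two-sided permutation test gave p = 0.0286, the smallest that 4 against 4 libraries allow, and 0.114 adjusted over the 4 such values compared, so it did not pass. Regions of 8 or more peaks held 8.51% ± 0.067 (SD, n = 4) and 8.41% ± 0.097 (SD, n = 4) of counts (exact permutation p = 0.229, adjusted 0.457). The highest decile of peaks held 36.2% ± 0.41 and 36.4% ± 0.30 (SD, n = 4 each, exact permutation p = 0.629, adjusted 0.829). By peaks, those in single-peak regions were called higher in 0.117% and lower in 0.212% of cases, and those in regions of 8 or more in 0.496% and 0.993%. Peaks in larger regions were also stronger, with a median of 24.3 against 10.8 CPM, so cluster size and depth cannot be told apart in these shares.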

How the data were processed

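H3K27ac ChIP-seq was measured in 8 libraries of Rh30 cells. The authors deposited 1 table of raw read counts in 42067 peak windows, 42065 of them with 400 bases between start and end. Per the submitters' processing notes, the builds hg19 and dm3 and the tools DiffBind, MACS2, Bowtie2, DESeq2 and Trimmomatic 0.32 were used, with no roles given. How peaks were called, duplicate removal and any spike-in are not given in the sources used here, so a change common to all peaks cannot be seen. Columns carry letters that the labels do not, so libraries are known by group only, and 0 columns were left without a group. Coordinates are on hg19 as deposited, with a possible offset of 1 base at starts. The gene tables at hand are on GRCh38, so peaks are named by position and no gene or sequence is given. The gene lists planned for this comparison were not tested for the same reason.

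The test was that of edgeR 4.0.16 (R 4.3.3), with filterByExpr (minimum count 10, minimum total 15, 276 peaks left out), TMM scaling, a robust quasi-likelihood fit with 1 mean per group and the contrast of the mean of 2 h and 4 h with the mean of DMSO and 24 h. Differences of DMSO and 24 h from the early groups came from the same fit. The test of both ends took the larger p where the signs matched and adjusted it over all peaks by Benjamini-Hochberg. The biological coefficient of variation was 3.28% and the median prior degrees of freedom were 180 against 4 residual ones, so p-values rest mostly on a spread shared by peaks. Levels are TMM-scaled CPM. The test gives no SE, so each SE is the absolute log2 difference divided by the square root of the F statistic. Library values were compared by exact permutation over 70 splits. Within groups, chi-square per degree of freedom between the 2 libraries was 1.06 to 1.21, above sampling noise, so none was counted as a repeat.

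Named peaks, stitched regions and 5 Mb windows with 20 or more peaks were chosen by size of the difference: 12 peaks, 6 regions and 3 windows per direction. Members and lists were chosen with earlier results of these data known. Alternatives included DESeq2 1.42.0, limma 3.58.1 (voom), other scalings and filters and leaving out libraries. The procedure was tested on simulated data.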

Additional observations from a re-analysis of the deposited data

How the results depend on the processing

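Other scalings in edgeR (DESeq2 size factors, total counts, offsets that follow abundance), both other filters and limma-voom kept the numbers of higher and lower peaks and regions within 1.5 times. The number of peaks above and below both ends was 1 and 2 with total counts, with offsets that follow abundance and with a filter at the median CPM. Regions above both ends numbered 2 with limma-voom and 0 with stitching at 5 kb. DESeq2 called 0 higher and 1 lower peak, 0 below both ends, 4 higher and 4 lower regions, and 0 above and 0 below both ends. Against a 1.2-fold change all of these counts were 0 for peaks and regions. With 1 mean per side, which gives no test of both ends, 1 and 6 peaks and 0 and 2 regions were called. With 2 h alone as the early side 80 and 42 peaks and 138 and 85 regions were called, with 0 peaks below both ends and 0 regions above or below. With 4 h alone there were 20 and 31 peaks and 45 and 56 regions. Without both early B libraries 16 and 22 peaks and 15 and 22 regions were called, with 0 regions above and 1 below both ends. Without both early A libraries 1 peak lay above and 17 below both ends, 98 regions were higher, and 11 lay below both ends. Fits that left out 1 library gave 31 to 97 higher and 25 to 161 lower peaks, 0 to 1 above and 0 to 6 below both ends, 76 to 151 higher and 63 to 156 lower regions, and 0 to 1 above and 1 to 5 below both ends; a group with 1 library is then assumed to vary like the others. The difference in total counts in peaks between the sides ranged from -347063 to 193054 and changed sign where the A library of 2 h (28904), of 4 h (20792) or of 24 h (193054) was left out. No named peak or region changed sign under any alternative run. The naming rule asked for early libraries all on one side of the end libraries, which nearly fixed this outcome in advance. The cause of these shifts was not tested, except that fits without a library hold fewer samples. The columns carry letters, not the replicate numbers of the labels. A fit with a replicate block by letter, chosen after seeing the data, called 141 higher and 168 lower peaks, 0 above and 1 below both ends, 215 higher and 174 lower regions, and 1 above and 3 below both ends, and it ended no call of a named peak or region. The A minus B differences of 2 groups correlated by -0.03 to 0.05 over peaks. Chi-square per degree of freedom within groups was 1.06 to 1.21, so over all peaks these differences were mostly counting noise. In the peaks with the highest counts (235 to 683 per group) it was 1.61 with DMSO, 3.65 at 2 h, 2.36 at 4 h and 1.84 at 24 h. Differences there exceeded counting noise. The correlation was taken over all peaks, where counting noise prevails, so it could not exclude an effect shared by letter. In the lowest decile the B libraries lay below the A libraries at 2 h, 4 h and 24 h, but not with DMSO. The labels do not say that letters mark pairs, so they were not taken as pairs. For 4 higher and 4 lower named regions DESeq2 gave no adjusted p.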
